A study of Mus musculus with 6 samples.

Results

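The plasminogen activators, their receptor and their serpins were taken as 6 genes: Plau, Plat, Plaur, Serpine2, Serpinb2 and Plg. The array's probes named 19057 genes in all. Members were all array probes annotated to 1 of these symbols, which gave 10 of the 45281 probes and covered 5 of the 6 genes. No probe was named for Serpine2 in the annotation used here, so it was not analysed here. A probe was tested when its detection p-value, which ranks it against negative control probes, was under 0.05 on at least 2 of the 6 arrays. This left 3 member probes, 1 each for Plau, Plaur and Plat, among 18076 tested in all.

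The arrays measured RNA of 4T1ch9 cells, 1 clone of 4T1, a mammary carcinoma line of Balb/c mice, that had been given a short hairpin RNA (shRNA) by lentivirus. The groups were STC1 shRNA given as 6 µl of virus (2 arrays), STC1 shRNA given as 18 µl (2 arrays) and non-targeting shRNA (2 arrays, of which replicate 1 had 6 µl and replicate 2 had 18 µl). The cells of every group, the non-targeting control included, carried lentivirus and had been kept in puromycin for 5 to 6 days. No label states that the 2 arrays of an STC1 group are separate cultures, so their spread may be technical. The non-targeting arrays differed in virus volume, so their spread also holds any effect of volume. The p-values that compare these groups rest on both kinds of spread. In RNA of a whole culture, fewer cells of a type and less RNA per cell cannot be told apart.

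Urokinase, the product of Plau, and tissue-type plasminogen activator, the product of Plat, are serine proteases that cut plasminogen (Plg), a zymogen made mainly by the liver, into plasmin. Plasmin is a broad protease that dissolves fibrin and cuts matrix proteins and latent growth factors. The urokinase receptor, encoded by Plaur, is a lipid-anchored protein that holds urokinase at the cell surface, and the serpins protease nexin 1 (Serpine2) and plasminogen activator inhibitor 2 (Serpinb2) trap the activators. In mammary carcinoma the system is known for its part in invasion and metastasis.

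The targeted gene was looked at first. Stc1, which encodes the secreted glycoprotein stanniocalcin 1, had a normalised log2 intensity of 7.68 and 7.87 on the STC1 6 µl arrays, 8.05 and 7.74 on the STC1 18 µl arrays, and 9.05 and 9.32 on the non-targeting arrays. All 4 STC1 arrays lay below both non-targeting arrays, in the direction of the labels. These values are of 1 probe, and a second Stc1 probe was at background on every array (detection p 0.246 to 0.956). Mean raw intensity per array ranged between 253.6 and 310.6 in STC1 samples and between 228.3 and 253.1 in non-targeting samples, and 16252 to 17507 probes were detected on each array. Of the 11 epithelial markers looked at, 6 were measured (Cdh1, Krt8, Krt18, Krt7, Cldn7 and Elf3) and none passed the test, while Epcam, Krt19, Krt14, Krt5 and Cldn4 were below the detection filter. The summed level of the 6 was between 8553 and 11779 in STC1 samples, with STC1 18 µl replicate 1 the lowest, and 10923 and 11033 in non-targeting samples. Whether that array's lower epithelial sum has a part in any value below was not tested.

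Among the activators and the receptor, Plaur and Plat were lower in STC1 cells and Plau did not pass the test. That is 2 of the 3 member probes tested, both in the lower direction. Over the whole array 7.78% of tested probes passed and 3.98% passed as lower. The test was limma on the log2 intensities, comparing the mean of both STC1 groups with non-targeting, and a probe passed at a Benjamini-Hochberg adjusted p under 0.05 over all 18076 probes. Precision is limited by having 6 arrays.

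The receptor gene Plaur had normalised log2 intensities of 8.25 and 8.26 on the STC1 6 µl arrays. On the STC1 18 µl arrays they were 8.73 and 8.21, and on the non-targeting arrays 8.95 and 9.16. All 4 STC1 arrays were below both non-targeting arrays, as for 16.5% of all tested probes, and STC1 18 µl replicate 1 stood closest to the non-targeting level. The group means were 8.36 ± 0.24 in STC1 samples (SD, n = 4) and 9.05 ± 0.15 in non-targeting samples (SD, n = 2). The difference was -0.69 on the log2 scale (SE 0.16, 95% interval -1.05 to -0.33, limma adjusted p = 0.0358), or 1.61-fold lower. The raw bead intensities were separated as well, at 322.9 to 434 in STC1 samples and 452.8 and 573.1 in non-targeting samples. That order held although the non-targeting arrays included the dimmest array of the series.

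Plat, the tissue-type activator, was measured by 1 of its 3 probes. This probe had normalised log2 intensities of 5.65 and 5.68 on the STC1 6 µl arrays, 5.33 and 5.74 on the STC1 18 µl arrays, and 6.08 and 6.42 on the non-targeting arrays. All 4 STC1 arrays were below both non-targeting arrays, as for 16.5% of all tested probes. The lowest value was on the same STC1 18 µl array on which Plaur was highest among STC1 samples. The means were 5.60 ± 0.18 in STC1 samples (SD, n = 4) and 6.25 ± 0.24 in non-targeting samples (SD, n = 2), a difference of -0.65 (SE 0.15, 95% interval -0.99 to -0.30, limma adjusted p = 0.0392), or 1.57-fold lower. The Plat signal was dim, with raw intensities of 71.4 to 100.1 in STC1 samples and 94.7 and 115.6 in non-targeting samples. Before normalisation the groups thus overlapped by 1 array. The size of the difference depended on the background step: it was -0.41 without background correction (adjusted p = 0.0196), in the deposited processed values (adjusted p = 0.0197) and with a larger offset (adjusted p = 0.0196).

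The remaining Plat probes gave no level. Their raw intensities were 42.6 to 52 in STC1 samples against 41 to 41.9 in non-targeting samples for ILMN_1232110, and 41.1 to 59.2 in STC1 samples against 45.8 to 49 in non-targeting samples for ILMN_3003008. Neither was above background on any array, so the fall of Plat rests on a single probe, ILMN_2775937.

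Plau, the urokinase gene, had normalised log2 intensities of 9.95 and 9.83 on the STC1 6 µl arrays, 10.46 and 9.98 on the STC1 18 µl arrays, and 9.97 and 10.40 on the non-targeting arrays. The groups overlapped, and the highest of the 6 values was in an STC1 sample. The means were 10.06 ± 0.28 in STC1 samples (SD, n = 4) and 10.19 ± 0.30 in non-targeting samples (SD, n = 2). The difference was -0.13 (SE 0.17, 95% interval -0.52 to 0.26, limma adjusted p = 0.682), an interval that reaches down to 0.698 times and up to 1.2 times the non-targeting level. It turned to 0.08 with median scaling (limma adjusted p = 0.791), which moved the median of all tested probes to 0.149, against 0.014. Without non-targeting replicate 2 the difference was 0.09.

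**Figure D1:**
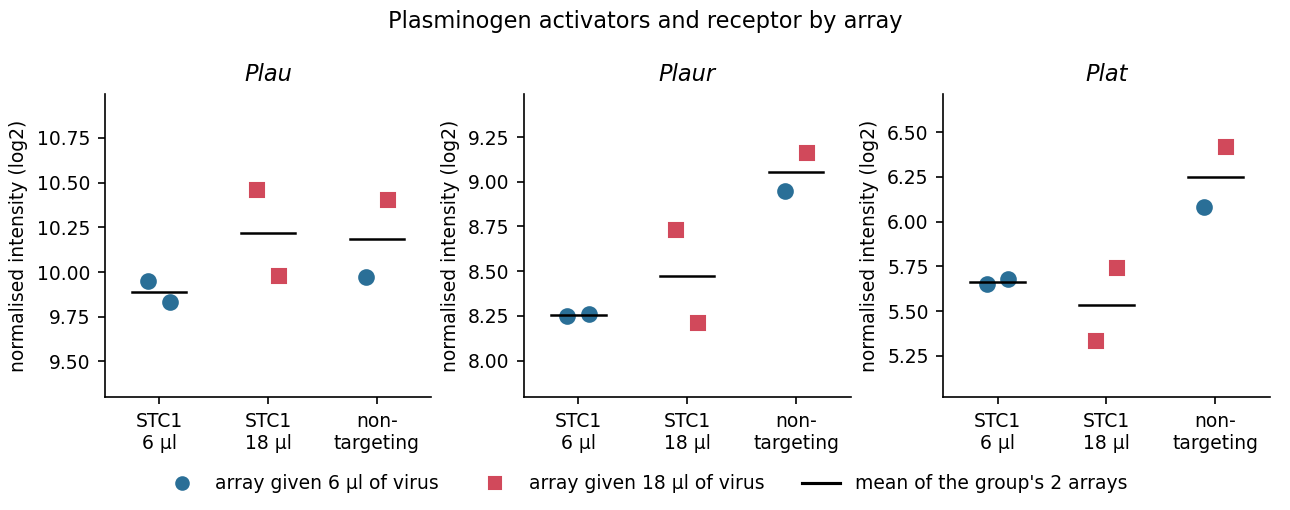
Normalised log2 intensity of the measured probe of Plau, Plaur and Plat on each array, with circles for 6 µl and squares for 18 µl of virus and a line at the mean of each group's 2 arrays. All 4 STC1 values lie below both non-targeting values for Plaur and Plat, and the groups overlap for Plau.

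The inhibitor Serpinb2 and the substrate Plg were at background. Raw intensities of the single Serpinb2 probe were 47.6 to 51.3 in STC1 samples and 41.7 and 51.4 in non-targeting samples, with detection p-values between 0.416 and 0.937. The 4 Plg probes lay between 40.8 and 61.2. Across the 7 member probes below the filter, 1 of 42 readings was detected, that of Plg probe ILMN_2593515 on non-targeting replicate 1, with a raw intensity of 61.2 and a detection value of 0.0192 against the negative controls. At background these probes give no level and no fold for either group.

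**Figure D2:**
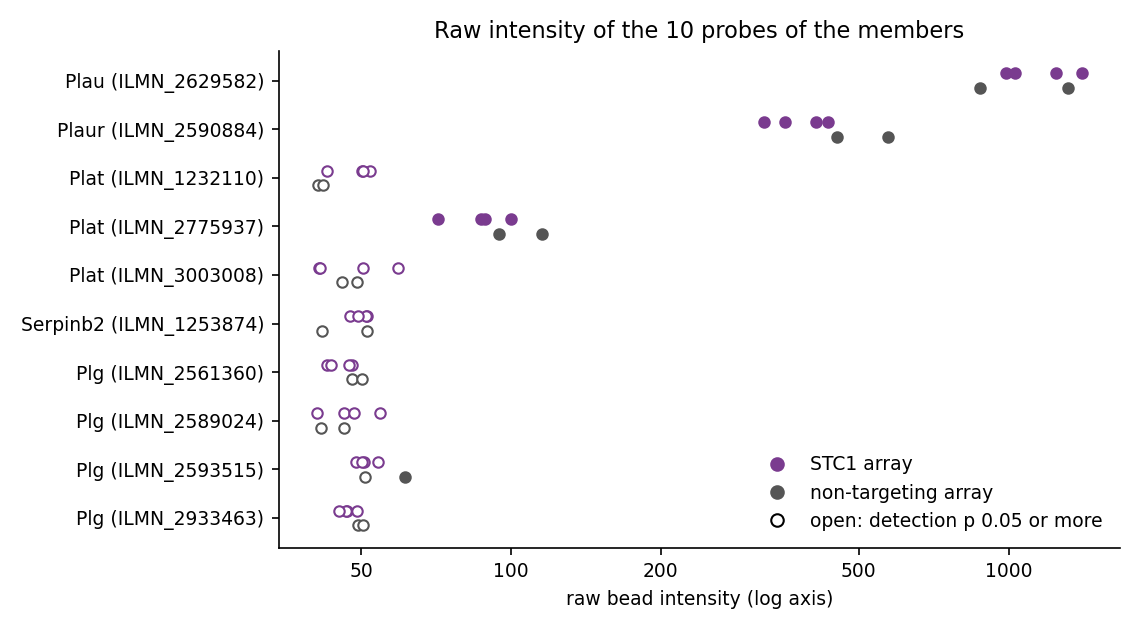
Raw bead intensity (log axis) of the 10 member probes, with STC1 arrays above non-targeting arrays for each probe and open symbols where the detection p-value was 0.05 or more. Only the Plau and Plaur probes and 1 Plat probe stand clear of the band between 40.8 and 61.2 in which the others lie.

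The volumes of STC1 virus were then set against each other. Against non-targeting, Plaur differed by -0.80 at 6 µl (limma adjusted p = 0.0493) and by -0.59 at 18 µl (adjusted p = 0.107), where 1.82% and 2.28% of all tested probes passed as lower. Plat differed by -0.58 at 6 µl (adjusted p = 0.0996) and by -0.71 at 18 µl (adjusted p = 0.0605), so it passed at neither volume alone. Plau differed by -0.29 at 6 µl (adjusted p = 0.411) and by 0.04 at 18 µl (adjusted p = 0.935). These comparisons share the non-targeting arrays.

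Between the volumes, STC1 at 18 µl minus STC1 at 6 µl, 0 of the 3 member probes passed, as did 0% of all probes in limma, where 6.8% of all probes and 0 members had an unadjusted p under 0.05. Plaur averaged 8.47 ± 0.37 at 18 µl and 8.26 ± 0.01 at 6 µl (SD, n = 2 each), a difference of 0.21 (95% interval -0.20 to 0.62). Plat averaged 5.54 ± 0.29 at 18 µl and 5.67 ± 0.02 at 6 µl, a difference of -0.13 (95% interval -0.53 to 0.27). For both genes the 2 arrays lay further apart at 18 µl than at 6 µl. Plau averaged 10.22 ± 0.34 at 18 µl and 9.89 ± 0.09 at 6 µl, a difference of 0.33 (95% interval -0.12 to 0.79).

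The non-targeting arrays also differed in volume, so each effect was taken within a volume, as 2 STC1 arrays against a single non-targeting array. For Plaur the STC1 effect was -0.69 at 18 µl and -0.69 at 6 µl, and the difference between them was 0.00 (95% interval -0.73 to 0.73). For Plat it was -0.88 at 18 µl and -0.41 at 6 µl, a difference of -0.47 (95% interval -1.13 to 0.20, limma adjusted p = 1). For Plau it was -0.17 at 18 µl and -0.08 at 6 µl, a difference of -0.09 (95% interval -0.81 to 0.62). When the arrays were ordered by volume alone, Plau differed without overlap: the 3 arrays given 18 µl of either virus (9.98, 10.40 and 10.46) all lay above the 3 given 6 µl (9.83, 9.95 and 9.97). This order was noticed after the values were seen, and 4.42% of all tested probes have it.

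**Figure D3:**
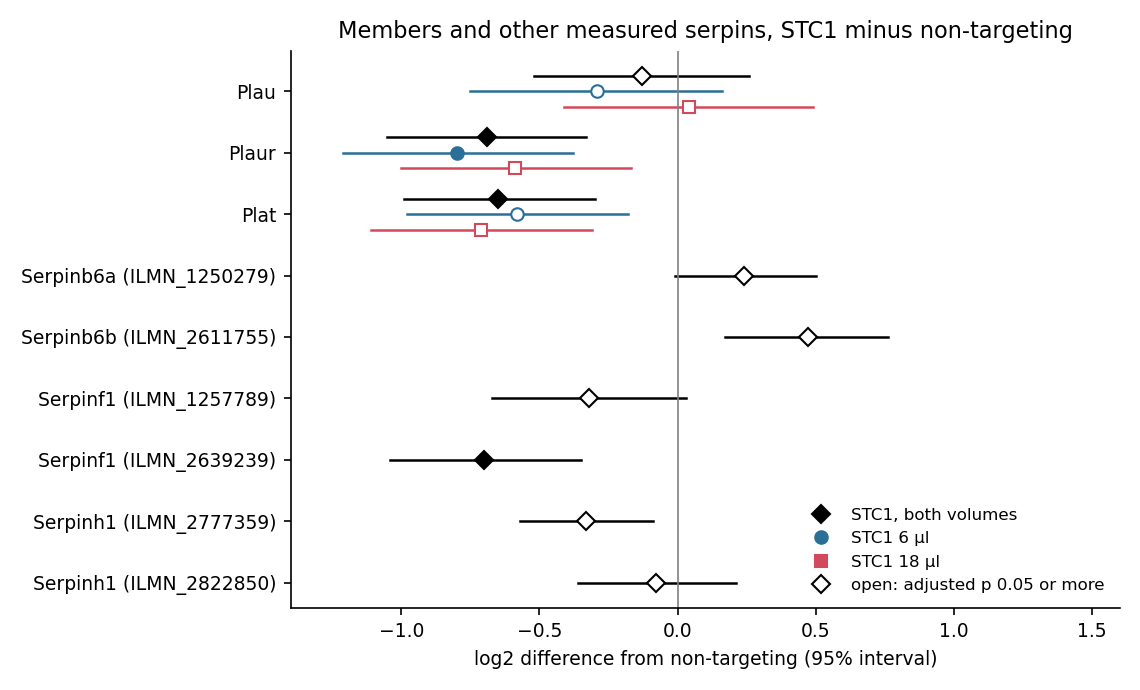
Log2 difference from non-targeting, with its 95% interval, for the members at both volumes together, at 6 µl and at 18 µl, and for the other measured serpin probes at both volumes together, where filled symbols passed the test. Plaur and Plat lie to the left of 0 in all 3 comparisons, and the Plau intervals cross 0.

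The calls of Plaur and Plat depended on single arrays. Plaur passed without STC1 18 µl replicate 1 (-0.82, limma adjusted p = 0.0167) and missed the threshold without any other array. Its adjusted p was 0.0782 without STC1 6 µl replicate 1, 0.103 without STC1 6 µl replicate 2, 0.0551 without STC1 18 µl replicate 2, 0.118 without non-targeting replicate 1 and 0.184 without non-targeting replicate 2. Its difference stayed between -0.82 and -0.56. Plat passed without STC1 18 µl replicate 2 (-0.75, adjusted p = 0.0406), and its adjusted p was 0.0864 and 0.107 without STC1 6 µl replicates 1 and 2, 0.0622 without STC1 18 µl replicate 1, and 0.0912 and 0.221 without non-targeting replicates 1 and 2. Its difference stayed between -0.82 and -0.48. Both genes were lower in STC1 samples in all 6 such fits, in which 155 to 1434 of all probes passed. With no filter on dim probes, so that all 45281 were adjusted for, the adjusted p was 0.0885 for Plaur and 0.0937 for Plat.

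**Figure D4:**
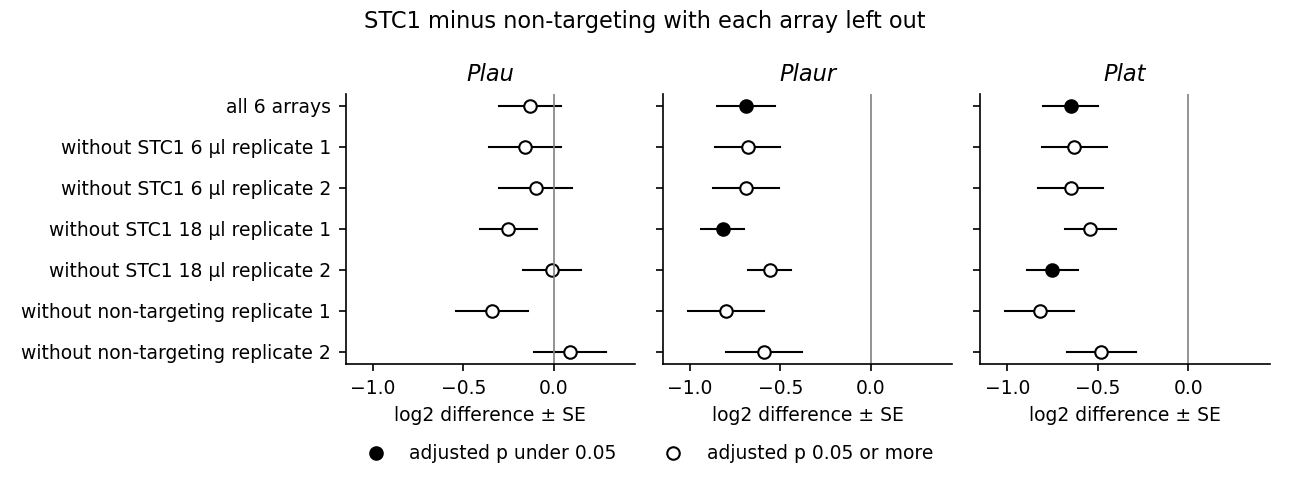
Log2 difference, STC1 minus non-targeting, with its SE, for Plau, Plaur and Plat with all 6 arrays and with each array left out, where filled symbols have an adjusted p under 0.05. Plaur and Plat stay below 0 in every fit, and Plau moves between -0.34 and 0.09.

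Of the members that passed, Plaur had a promoter in the RefSeq table used here, and its upstream sequence is shown because regulators of the AP-1 and ETS families are described below. The window is the 250 bases before the start site on the plus strand of build GRCm38.p6, chr7:24462233-24462482. Capitals mark the match to the AP-1 site.
Plaur: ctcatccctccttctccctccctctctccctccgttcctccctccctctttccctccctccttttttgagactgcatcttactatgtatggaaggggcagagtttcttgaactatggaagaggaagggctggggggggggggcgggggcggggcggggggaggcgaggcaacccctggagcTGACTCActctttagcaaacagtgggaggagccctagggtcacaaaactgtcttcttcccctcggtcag
Searched on both strands, this window held 1 match to the AP-1 letters TGANTCA, at position 182, and so do 6.75% of the 32851 promoter windows of the same length. It held 3 matches to the GC box GGGCGG, 2 of which overlap (32.7% of windows hold at least 1). It also held 1 match to AGGAAG, 1 form of an ETS-type site (29.5% of windows). Other or shorter forms of that site were not searched for. The cyclic AMP response element TGACGTCA was not in these letters (1.55% of windows), and no stretch can match both it and TGANTCA over the same letters. A match describes the letters only.

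The other serpins were mostly not measured. Of 81 serpin probes for 56 genes, Serpinb2 included, 6 probes of 4 genes passed the detection filter, and 1 of these 6 passed the test. Serpinf1, which encodes pigment epithelium-derived factor, a serpin without inhibitory activity, had log2 intensities at probe ILMN_2639239 of 4.40, 4.44, 4.81 and 4.52 in STC1 samples and 5.02 and 5.46 in non-targeting samples. The STC1 values all lay below, as for 16.5% of all tested probes, and 1 of the 4 was above background. With 3 of the 4 STC1 values at background, the fitted difference of -0.70 (SE 0.15, limma adjusted p = 0.0323) gives no fold. The call held in 1 of the 6 fits that leave out an array, the one without STC1 18 µl replicate 1 (adjusted p = 0.0358, and 0.053 to 0.186 in the others). It was -0.38 without background correction (adjusted p = 0.0245), and with no filter on dim probes it missed the threshold (adjusted p = 0.0794). The second Serpinf1 probe, detected on all 6 arrays, differed by -0.32 (SE 0.15, adjusted p = 0.233), with overlapping groups.

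Serpinh1, the collagen chaperone of the endoplasmic reticulum, differed by -0.33 (SE 0.11, adjusted p = 0.093) and by -0.08 (SE 0.13, adjusted p = 0.748) at its 2 probes. The first passed without background correction (adjusted p = 0.0273), in the deposited values (0.0276) and with an offset of 50 (0.0235). Serpinb6a, an intracellular protease inhibitor, averaged 11.28 ± 0.08 in STC1 samples and 11.04 ± 0.05 in non-targeting samples (SD, n = 4 and 2; difference 0.24, adjusted p = 0.205). Serpinb6b, its close relative, averaged 5.51 ± 0.14 in STC1 samples and 5.04 ± 0.24 in non-targeting samples (difference 0.47, adjusted p = 0.0619). It passed with median scaling (adjusted p = 0.0212), with detection on all 6 arrays (0.0427) and with volume as a covariate (0.0387). Both Serpinb6 probes had all 4 STC1 arrays above both non-targeting arrays, as had 18.9% of all tested probes.

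The genes around the system were described by lists of named genes, each gene by its brightest tested probe. Over all 9754 genes 8.17% passed, 4.45% as higher and 3.72% as lower, and the median log2 difference was 0.033. Plasminogen receptors and binding partners had 7 of 11 listed genes measured, of which 0 passed in limma (2 at an unadjusted p under 0.05) and a median of 0.00. The smallest p was that of S100a10, the annexin A2 partner that binds plasminogen, at 11.32 ± 0.11 in STC1 samples and 11.75 ± 0.04 in non-targeting samples (difference -0.43, SE 0.12, adjusted p = 0.0586). Anxa2 itself differed by 0.02 at the brighter probe used for the count (limma adjusted p = 0.942) and by 0.38 at a second probe (adjusted p = 0.11). Plgrkt, a transmembrane plasminogen receptor, differed by 0.34 (adjusted p = 0.135).

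Of the receptors and partners of the urokinase receptor, 12 of 18 listed genes were measured, of which 1 rose and 1 fell, with a median of 0.06. Itgb5, an integrin beta subunit that binds vitronectin, was at 8.90 to 9.49 in STC1 samples and 8.02 and 8.63 in non-targeting samples. It rose by 0.99 (SE 0.20, limma adjusted p = 0.0259), or 1.98-fold, and the groups did not overlap. Lrp8, a lipoprotein receptor, was at 8.07 to 8.72 in STC1 samples and 8.91 and 9.06 in non-targeting samples, a fall of 1.63-fold (-0.70, SE 0.17, adjusted p = 0.0392). Its other 3 probes differed by -0.48, -0.33 and -0.27 and did not pass. Lrp1, an endocytic receptor for many extracellular ligands, differed by 0.40 (adjusted p = 0.196).

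In the Ly6 and uPAR domain family, which shares the fold of the urokinase receptor, 6 of 14 listed genes were measured, of which 2 rose and 1 fell, with a median of 0.13. Lypd3, which encodes a relative of the urokinase receptor found in epithelia, was at 5.30 to 5.60 in STC1 samples and 6.06 on both non-targeting arrays. It fell 1.51-fold (-0.60, SE 0.11, limma adjusted p = 0.0193), without overlap between the groups. Lynx1, a modulator of nicotinic receptors, and Ly6e, a lipid-anchored surface protein, were not well above background on either non-targeting array. They were at least 1.56-fold (adjusted p = 0.0206) and at least 1.37-fold (adjusted p = 0.0323) higher in STC1 samples. Each bound sets the STC1 mean against the lowest signal above background on the non-targeting arrays. Both genes met the detection filter through the STC1 arrays alone and so could only be higher there. With detection required on all 6 arrays, 2 genes of the list were left, of which 1 passed, and the median turned to -0.23.

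Other extracellular serine proteases had 12 of 25 listed genes measured, of which 2 rose and 0 fell, with a median of 0.07. The measured genes included Ctsb, which encodes a cysteine protease and did not pass. St14, which encodes the membrane protease matriptase, was not well above background on the non-targeting arrays and was at least 1.23-fold higher in STC1 samples (limma adjusted p = 0.0399), although it met the detection filter through the STC1 arrays alone. With detection required on all 6 arrays, 7 genes of the list were left, of which 1 passed, and the median turned to -0.14. Masp1, a protease of the lectin pathway of complement, averaged 10.92 ± 0.23 in STC1 samples and 10.30 ± 0.18 in non-targeting samples, a rise of 1.54-fold (0.62, SE 0.16, adjusted p = 0.0489). Its other probes differed by -0.10 and 0.19. Of the Kunitz and other protease inhibitors outside the serpin family, 10 of 14 listed genes were measured. In limma 0 passed (2 at an unadjusted p under 0.05), and the median was 0.03. Without background correction, in the deposited values, with median scaling and with an offset of 50, 1 gene of these inhibitors passed. The smallest p in that list was that of Spint1, the inhibitor of matriptase and hepsin, at -0.34 (SE 0.12, adjusted p = 0.111). Aplp2 differed by 0.12 at the brighter probe used for the count (adjusted p = 0.618) and by 0.72 at a second probe (adjusted p = 0.0175).

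Plasmin substrates moved both ways: of 24 listed genes 14 were measured, of which 2 rose and 2 fell. Their median of -0.13 became 0.03 with median scaling, which moved the median of all probes to 0.149, against 0.014 with quantile normalisation, and with which 80.8% of the probes that passed were higher, against 48.9%. The stromelysins, which plasmin can activate from their zymogens, fell. Mmp3 was at 11.39 to 11.63 in STC1 samples and 12.76 and 13.01 in non-targeting samples (-1.34, SE 0.13, limma adjusted p = 0.00186), and its other 2 probes passed at -1.72 and -1.49. Mmp10 was at 5.35 to 5.92 in STC1 samples and 6.75 and 6.83 in non-targeting samples (-1.17, SE 0.17, adjusted p = 0.00744). Vegfa, an angiogenic growth factor, rose 1.77-fold (0.82, SE 0.14, adjusted p = 0.0139), and Fn1, the matrix protein fibronectin, rose 1.81-fold (0.86, SE 0.21, adjusted p = 0.0442). A second Vegfa probe passed at 0.58 (adjusted p = 0.0464). The other Fn1 probes differed by 0.67, which passed, and by 0.24, which did not.

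Among AP-1, ETS and related regulators of urokinase transcription, 18 of 20 listed genes were measured, of which 2 fell and 0 rose. The count of genes that passed was 5 without background correction, in the deposited values and with an offset of 50, and 0 when dim probes were kept, or when any of 4 arrays was left out (each STC1 6 µl array, STC1 18 µl replicate 2 and non-targeting replicate 1). The list's median was -0.11, and 0.05 with median scaling. Ets2, a transcription factor of the ETS family, was at 7.71 to 8.08 in STC1 samples and 8.36 and 8.91 in non-targeting samples (-0.75, SE 0.16, limma adjusted p = 0.0278). Fosb, an AP-1 subunit, was at 5.07 to 5.45 in STC1 samples and 5.70 and 6.19 in non-targeting samples (-0.71, SE 0.17, adjusted p = 0.0392). For both genes all 4 STC1 arrays were below both non-targeting arrays, as for 16.5% of all tested probes. Fos and Jun, the classical AP-1 pair, differed by -0.04 (adjusted p = 0.943) and -0.10 (adjusted p = 0.714). The probes of Klf4 disagreed: the brightest, used for the count, differed by 0.40 (adjusted p = 0.128), and the others by 0.60 (adjusted p = 0.0268) and -0.13 (adjusted p = 0.482).

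**Figure D5:**
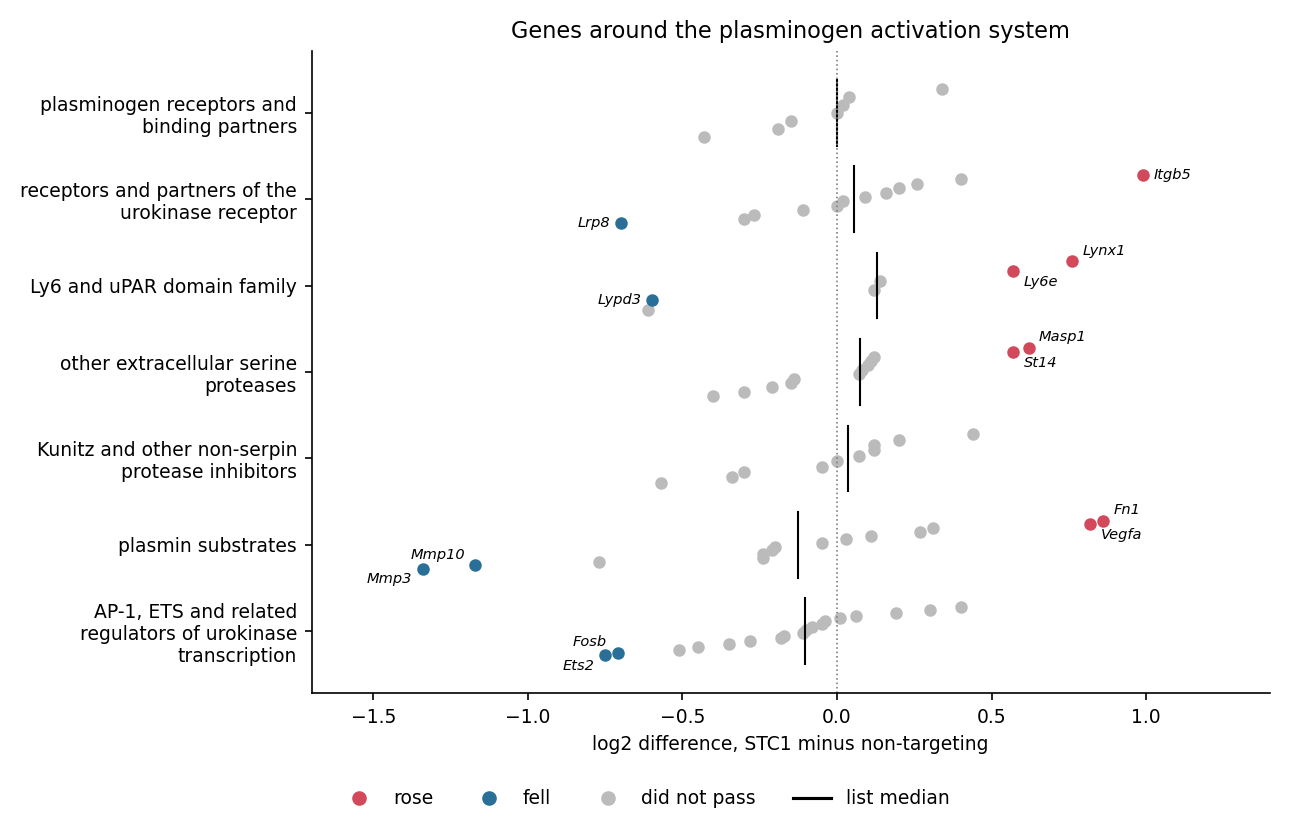
Fitted log2 difference, STC1 minus non-targeting, of each measured gene of the 7 lists, coloured by whether it rose, fell or did not pass, with a line at each list's median; vertical position within a list only separates the points. The medians lie between -0.13 and 0.13, and the genes that passed are named (for Lynx1, Ly6e and St14 the fitted value is no bound).

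Of the list genes and markers that passed, Mmp3 did so in all 6 fits that leave out an array, with adjusted p up to 0.0262. Vegfa and Mmp10 did so in 4 of 6, and missed the threshold without either non-targeting array, with adjusted p up to 0.0989 and 0.0632. Itgb5, Lypd3, Lynx1 and the fibroblast marker Pdgfrb passed in 2, with adjusted p up to 0.148, 0.127, 0.122 and 0.119. The passing fits left out STC1 18 µl replicate 1 for all 4 genes, and beside it non-targeting replicate 1 for Itgb5 and STC1 18 µl replicate 2 for the other 3. Lrp8, Ly6e, St14, Masp1 and Fn1 passed only without STC1 18 µl replicate 1, Ets2 only without non-targeting replicate 2, and Fosb in 0 of 6 fits (adjusted p between 0.0563 and 0.225), although each kept its sign. Ets2 differed by -0.48 without non-targeting replicate 1 (adjusted p = 0.183), and Fosb by -0.47 without non-targeting replicate 2 (adjusted p = 0.225). With no filter on dim probes Mmp3, Mmp10, Vegfa and Lypd3 passed and the others did not. Lynx1, Ly6e, St14 and Pdgfrb met the detection filter through the STC1 arrays alone and so could only be higher there. Their kept sign and the fits they passed are therefore no support for a rise. Without background correction the dim genes had smaller differences: Fosb -0.41 and Lypd3 -0.36, which passed, Lynx1 0.39, St14 0.33 and Pdgfrb 0.47, which passed, and Ly6e 0.29, which did not (adjusted p = 0.0558). Mmp10, also dim, passed there at -0.78, against -1.17 with background correction. St14 also missed the threshold with an offset of 50 (adjusted p = 0.0795), and Fn1 with the replicate number as a block (adjusted p = 0.0507).

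Markers of other cell types were looked at beside these values. Of 8 fibroblast markers 2 were measured, and their summed level was 913 to 1422 in STC1 samples and 864 and 1025 in non-targeting samples. Pdgfrb, which met the detection filter through the STC1 arrays alone, was at least 1.48-fold higher there (limma adjusted p = 0.0201), while the defining collagen genes Col1a1, Col1a2 and Col3a1 were below the detection filter. Of 11 leukocyte markers 3 were measured and 0 passed (0 at an unadjusted p under 0.05), with sums of 279 to 377 in STC1 samples and 325 and 328 in non-targeting samples, and Ptprc was below the filter. Of 7 endothelial markers 2 were measured and 0 passed (1 at an unadjusted limma p under 0.05). Their sums were 581 to 788 in STC1 samples and 468 and 527 in non-targeting samples, and Pecam1 and Cdh5 were below the filter. Without background correction, in the deposited values, with median scaling and with an offset of 50, 1 endothelial marker passed. Egfl7 differed by 0.55 at the brightest probe, used for the count (adjusted p = 0.0546), and by 0.51 (adjusted p = 0.0388) and 0.24 (adjusted p = 0.318) at its others. The part of other cell types in the fall of Plaur and Plat was not tested.

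The genes most like the members that passed were taken by Pearson's r over the 6 arrays, as a description. For Plaur they were Ebna1bp2, a nucleolar protein (r = 0.996), S100a7a, a secreted calcium-binding protein (r = 0.994), and Nol6, a nucleolar RNA-associated protein (r = 0.993). Of these S100a7a passed the test (-1.06, limma adjusted p = 0.033). Ebna1bp2 differed by -0.40 (adjusted p = 0.0976) and Nol6 by -0.38 (adjusted p = 0.105). For Plat they were Sgpl1, sphingosine phosphate lyase (r = 0.983), Ppp2r3c, a regulatory subunit of phosphatase 2A (r = 0.982), and Stard10, a lipid transfer protein (r = 0.978), and none of the 3 passed (adjusted p 0.0536, 0.0793 and 0.0788). Candidates were genes whose SD over the 6 arrays was at least 0.5 times that of the member. With 6 arrays that fall into groups, high r is common: 235 of 3610 such genes had r over 0.9 with Plaur, and 126 of 4201 with Plat. Among the members r was 0.64 between Plaur and Plat, 0.66 between Plau and Plaur and 0.08 between Plau and Plat.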

How the data were processed

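RNA of 6 samples was labelled as biotinylated cRNA for Illumina bead arrays, per the labels' protocols. The deposited unprocessed table holds a linear bead intensity per probe and array, not normalised between arrays, and beside it a detection p-value, per the file headers. The deposited processed table holds log2 values, which set against the raw values were quantile-normalised log2 intensities with a median of 5.777 on each array. Scanner software was not given in the sources used here, nor any chip or batch.

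Intensities were background-corrected, given an offset of 16, quantile-normalised and put on the log2 scale by the neqc function (limma 3.58.1, R 4.3.3). The offset understates folds of dim probes. Probe names came from the platform annotation (34903 of 45281 probes listed, 34885 with 1 symbol, 18 with several, 10378 unnamed), updated through 34807 matched gene identifiers. The limma model (lmFit, eBayes) had 1 mean for each of 3 groups, with 3 residual and 5.66 prior degrees of freedom. P-values were two-sided and Benjamini-Hochberg adjusted over 18076 probes. Folds are log2 differences turned back to the linear scale.

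Named genes were every member probe, each further serpin that was measured, from each list those that passed (up to 4 by smallest p) or else the smallest p, and the 3 genes most like each member that passed. A few further list genes and probes were named after their values were seen. Members and lists were chosen with earlier results of these data known. Deviations of same-numbered arrays correlated at -0.021 between non-targeting and STC1 6 µl, and at -0.113 between non-targeting and STC1 18 µl. Between the STC1 groups the correlation was 0.005. The values with non-targeting cannot tell whether replicate numbers pair samples, because the non-targeting replicates differed in volume.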

Additional observations from a re-analysis of the deposited data

Results flagged for a closer look

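In 6 of 30 genes or probes looked at, 1 of the 4 STC1 arrays stood apart from the other 3 by more than Dixon's 95% critical value. Chance gives about 1 in 20 for independent items. The 30 share the same arrays, and some were chosen for passing the test or for likeness. The count therefore cannot be set against that rate. Ebna1bp2 and S100a7a were named for their likeness to Plaur, so they are no separate cases of its pattern. Plaur was at 8.73 on STC1 18 µl replicate 1, above the other STC1 arrays and below both non-targeting arrays. On that array Ebna1bp2 was at 9.88 and S100a7a at 7.70, also above the other STC1 arrays. Itgb5 was at 8.90 there and Lynx1 at 5.07, below the other STC1 arrays. The Serpinh1 probe ILMN_2822850 was at 8.26 on STC1 6 µl replicate 2, below the others.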

How the results depend on the processing

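Plaur and Plat kept a negative difference under all alternatives run. Both passed without background correction, in the deposited processed values, with median scaling (-0.50 and -0.52), with an offset of 50, with detection on all 6 arrays, with 2 groups, with volume as a covariate and with the replicate number as a block (adjusted p 0.0409 and 0.0274). With no filter on dim probes neither did (0.0885 and 0.0937), so 0 of 10 member probes passed, as 45281 probes were then adjusted for; with each array left out 0 to 1 passed. Median scaling moved the median of all tested probes to 0.149, against 0.014. Plau, at -0.13, turned to 0.08 with median scaling and lay between -0.34 and 0.09 with an array left out. The Serpinh1 probe ILMN_2822850, at -0.08, turned to 0.10 with median scaling and lay between -0.16 and 0.00 with an array left out. Against 1407 probes of all, 2288 passed without background correction and 2288 in the deposited values, 2528 with median scaling, 2293 with the offset of 50 and 787 without the filter; 155 to 1434 passed with an array left out. The block gave 1295, and whether the replicate numbers pair the samples is not settled. Between volumes 0 members passed under every alternative run. The causes were not tested. Dim probes, Plat and Serpinf1 among them, lie close to the background, which limits their folds.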
